A study of Mus musculus with 8 samples.

Results

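Small nucleolar RNA host genes and a set of other well-known noncoding RNA genes were followed in mouse common lymphoid progenitors (CLP) taken fresh from bone marrow and in their cultured counterparts (cCLP). The set was defined by gene symbol and not by measured values, although earlier results of these data were known when it was chosen. It holds the genes named Snhg plus a number, and Gas5, Epb41l4aos, Malat1, Neat1, Meg3, Mir17hg, Mir142hg, Mir155hg, Dleu2, Rmrp, Rpph1 and Terc. Of 39179 Ensembl gene IDs in the deposited tables, 24 belonged to it, 13 of them named Snhg or Gas5 and 11 with other names. The symbols Norad and Kcnq1ot1 were also sought and are not analysed here, and neither are Snhg1, Snhg8, Snhg10 and Snhg14.

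Most small nucleolar RNAs (snoRNAs) of mammals are not made from genes of their own but are cut out of the introns of a longer host transcript. Box C/D snoRNAs guide the methylation of ribose in ribosomal RNA and box H/ACA snoRNAs guide the conversion of uridine to pseudouridine. Some hosts encode proteins of the translation machinery, while the Snhg genes and Gas5 yield spliced RNAs without a long reading frame, which start with a run of pyrimidines in several cases and are known as targets of nonsense-mediated decay. The other genes of the set differ in kind: Mir17hg, Mir142hg and Mir155hg are microRNA precursors with known roles in lymphocytes, Rpph1 and Rmrp are the RNA subunits of the nucleases RNase P and RNase MRP, Terc is the telomerase template RNA, and Malat1 and Neat1 are nuclear RNAs of speckles and paraspeckles.

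The study compared 4 libraries labelled ex vivo CLP with 4 labelled cCLP, each from C57BL/6 mouse bone marrow cells sorted as Lin-IL7R+Flk2+CD27+Ly6d-. The cCLP had been kept for 2 months on OP9, a mouse stromal cell line, in medium with Flt3L and a low dose of IL-7, whereas the ex vivo CLP were sorted directly. The labels do not tie the replicates to separate animals or cultures, so p-values measure the spread between these libraries, which may be technical. In such bulk samples, fewer cells of a type and less RNA per cell cannot be told apart.

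The deposited value of a gene is a whole-number score whose scale the labels do not give, and it varied less between replicates than read counts can. The scores of a library summed to 378594 at least and 704305 at most, but such a sum is no depth, so depth is unknown and no detection limit is given. A gene with no signal is called listed at 0. Values below are scaled values, that is, scores divided by a library factor. Of the sort markers, Flt3 had scores of 171 to 333 and Cd27 of 56 to 113. Il7r, also sorted for, had scores of 14 to 61 in cCLP 1 and ex vivo CLP 1, 3 and 4, and of 193 to 256 in ex vivo CLP 2 and cCLP 2 to 4. Ly6d, which the sort selected against, had scores of 22 to 41 in cCLP 1 and ex vivo CLP 1, 3 and 4, and of 0 to 1 in the others. Of 8 stromal markers 7 were listed at 0 in every library and the eighth, Pdgfrb, at 3 to 12. Of 5 lineage markers Cd3e was listed at 0 in every library. The sum of the 5 was low but split in the same way, at 10 to 18 in cCLP 1 and ex vivo CLP 1, 3 and 4 and at 1 to 3 in the others. Most of it was Itgam, a myeloid marker, at 8 to 15 and at 1 to 3. Il7r, Ly6d and the lineage sum thus move with the 6-library differences given below, and their part in those was not tested.

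A pair of libraries stood with the group they were not labelled for. Across tested genes, the Spearman correlation of the library labelled ex vivo CLP 2 was 0.959 to 0.987 with cCLP 2 to 4 and 0.738 to 0.801 with ex vivo CLP 1, 3 and 4. The library labelled cCLP 1 correlated at 0.947 to 0.979 with ex vivo CLP 1, 3 and 4 and at 0.781 to 0.793 with cCLP 2 to 4. Among the tested genes of the set, ex vivo CLP 2 lay nearer to the mean of cCLP 2 to 4 for 14 of 14. The library labelled cCLP 1 lay nearer to the mean of ex vivo CLP 1, 3 and 4 for 11 of 14. For some of these genes, such as Snhg15 and Snhg6, the groups themselves overlapped, so nearness says little there. The same counts over all tested genes were not taken. Each result is therefore given over the 8 libraries as labelled and over the 6 libraries without this pair, in which 3 stand against 3. The pair was left out because of its values, so p-values over 6 libraries do not account for that choice.

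Over 6 libraries, 5 of the noncoding RNA genes were higher in cCLP and 3 were lower (limma, adjusted p below 0.05). Mir142hg, Rpph1, Snhg20, Mir17hg and Snhg3 rose, by 1.34-fold to 2.47-fold, and of these Snhg20 passed the filter on low values through its cCLP values alone, which fixed its direction. Snhg12, Snhg5 and Snhg16 fell, to between 0.651 and 0.699 of the ex vivo level. Of these, Snhg16 passed the filter through its ex vivo values, since among cCLP 2 to 4 only cCLP 2 reached a scaled value of 10. The other 6 tested genes, Gas5, Malat1, Rmrp, Snhg6, Epb41l4aos and Snhg15, did not pass. Among all 6573 genes tested over these 6 libraries, 20.9% were called higher and 22.2% lower, 43.1% together, so 8 calls among 14 tested genes stand beside a high background. Of the 24 genes, 14 reached a scaled value of 10 in at least 3 libraries and were tested, 6 lay under that filter and 4 were listed at 0 in every library. The groups did not overlap for 9 of the 14, against 55.8% of all tested genes, and the median log2 fold change was 0.05, against 0.01 over all genes.

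Over the 8 libraries as labelled, 0 of 14 genes of the set and 0 of 6486 genes in all were called by limma, which makes the background 0%. At an unadjusted p below 0.05 there were 477 genes in all, and 1 of the set, Snhg12. No gene of the set separated the labelled groups, where 3.48% of all tested genes did. The smallest adjusted p was 0.484.

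**Figure D1:**
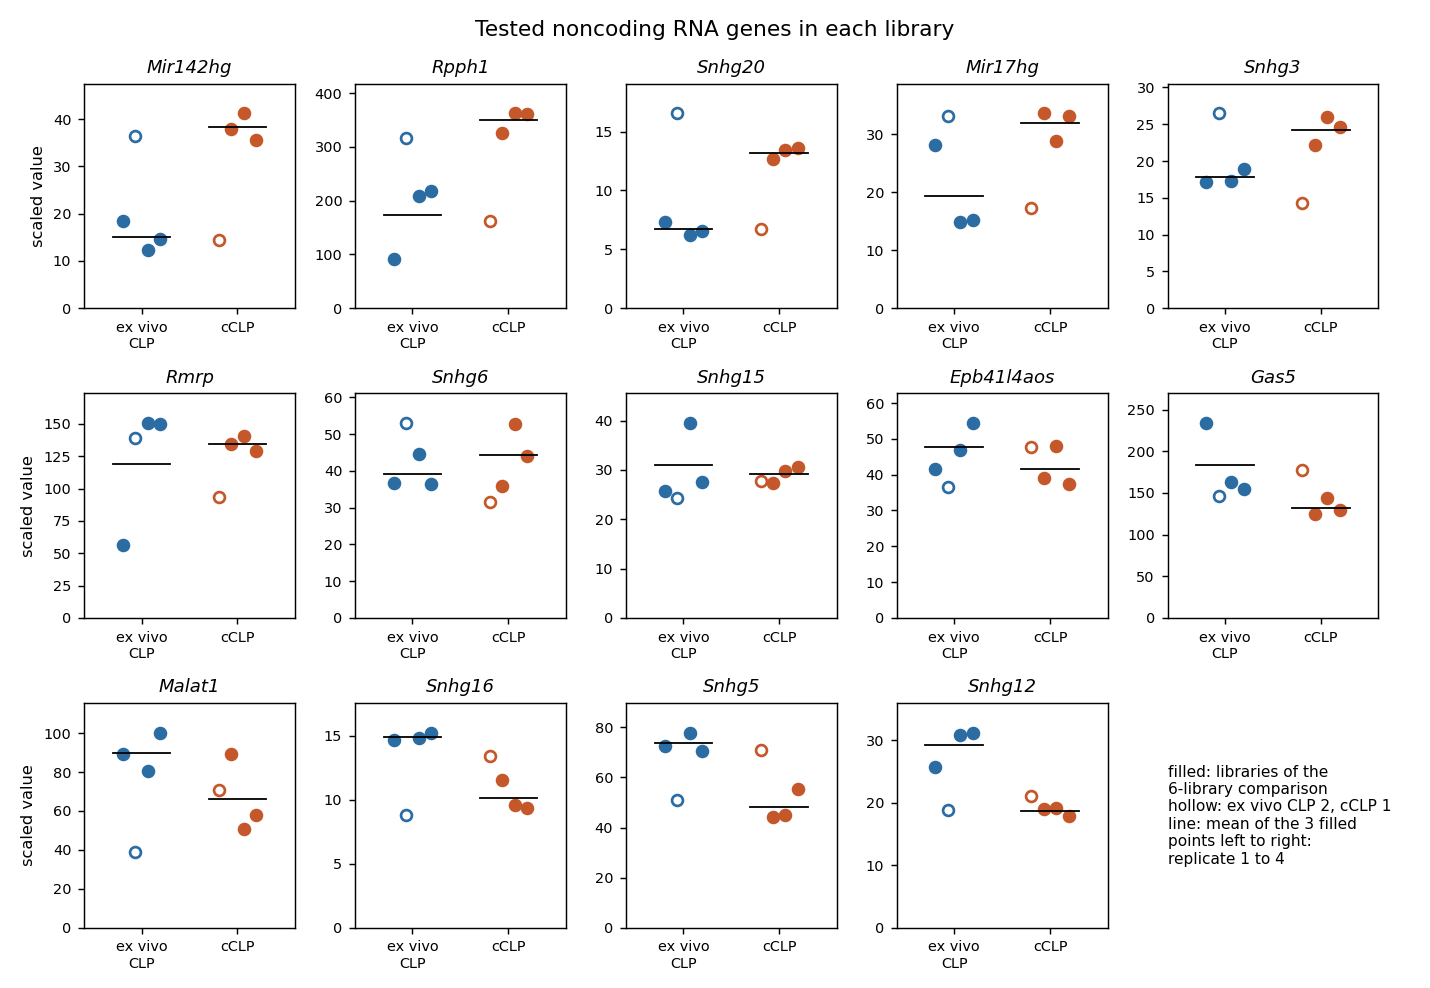
Scaled value (vertical axis, from 0, no unit) of the 14 tested noncoding RNA genes in each library, by labelled group; filled points are the 6 libraries compared as 3 against 3, with their mean as a line, and hollow points are ex vivo CLP 2 and cCLP 1. In the top row the filled cCLP points lie above the filled ex vivo points, in the panels of Snhg16, Snhg5 and Snhg12 they lie below, and the hollow points of Snhg20 lie with the opposite group.

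**Figure D2:**
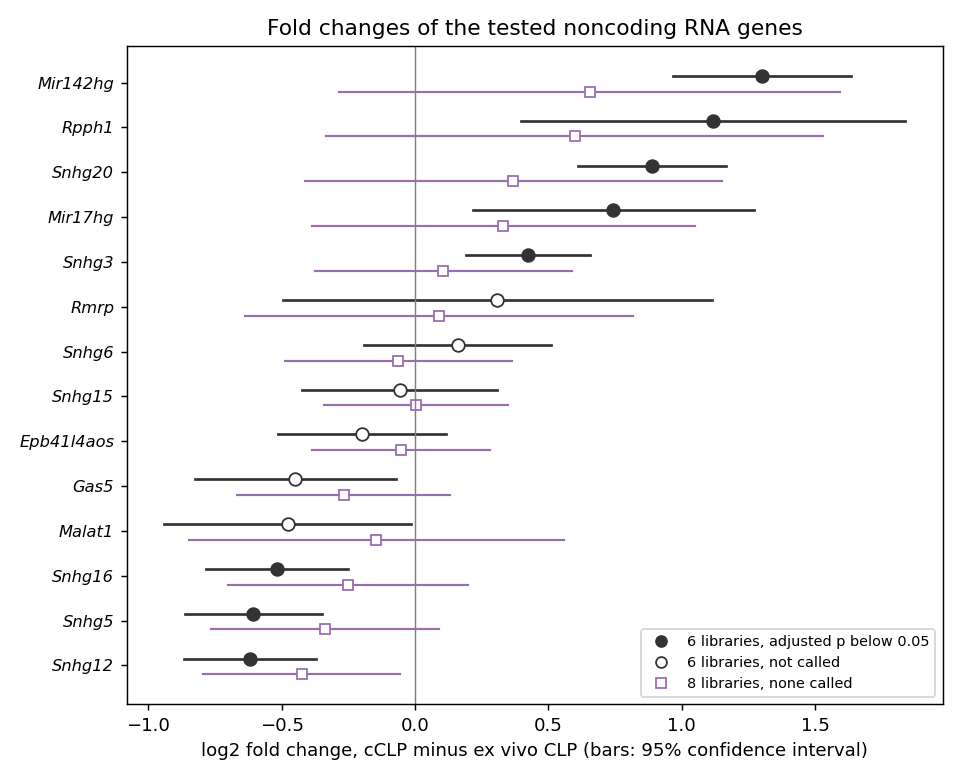
Log2 fold change (horizontal axis, cCLP minus ex vivo CLP, on log2(scaled value + 1)) with its 95% confidence interval for the 14 tested genes, over 6 libraries (circles, filled where called) and over the 8 as labelled (squares). The values over 6 libraries run from 1.30 for Mir142hg to -0.62 for Snhg12, and most values over 8 libraries lie nearer to 0.

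The host genes that were lower in cCLP carry different snoRNAs. Snhg12 (chromosome 4: 132308623 to 132311024, plus strand, GRCm38) holds Snora16a, Snora44, Snora61 and the box C/D snoRNA Snord99. Its scaled values were 25.7, 18.8, 30.9 and 31.2 in ex vivo CLP 1 to 4 and 21.04, 18.95, 19.2 and 17.8 in cCLP 1 to 4. Ex vivo CLP 1, 3 and 4 lay above every cCLP library, and ex vivo CLP 2 lay among the cCLP values. Over 6 libraries Snhg12 fell from 29.3 ± 3.08 to 18.7 ± 0.736 (SD, n = 3 each), a log2 fold change of -0.62 ± 0.11 (SE) with a limma adjusted p of 0.00239. Over 8 libraries the log2 fold change was -0.43 ± 0.16, and the unadjusted p of 0.0289 became 0.484 after adjustment in limma.

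Snhg5 (chromosome 9: 88521050 to 88522929, minus strand) is the host of the box C/D snoRNAs Snord50a and Snord50b. It measured 72.3, 50.9, 77.9 and 70.5 in ex vivo CLP 1 to 4 and 70.8, 44.2, 45.1 and 55.2 in cCLP 1 to 4. The library labelled cCLP 1 stood at the ex vivo level and ex vivo CLP 2 at the cCLP level. Its mean fell from 73.6 ± 3.85 to 48.2 ± 6.08 (SD, n = 3 each) over 6 libraries, a log2 fold change of -0.61 ± 0.11 with a limma adjusted p of 0.00327, and the value over 8 libraries was -0.34 ± 0.19.

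Snhg16 (chromosome 11: 116671660 to 116675799, plus strand), found under the RefSeq symbol, holds Snord1a, Snord1b and Snord1c. It measured 14.7, 8.85, 14.8 and 15.3 in ex vivo CLP 1 to 4 and 13.4, 11.6, 9.61 and 9.34 in cCLP 1 to 4. Ex vivo CLP 2 was the lowest of the 8 libraries. In the 6-library comparison all its ex vivo values reached the filter of 10, while of the cCLP values only that of cCLP 2 did. Snhg16 was thus tested through its ex vivo values, a filter that favours a fall. Over 6 libraries it fell by 0.52 on the log2 scale (SE 0.12; limma adjusted p 0.00809), and over 8 libraries the log2 fold change was -0.25 ± 0.20. St6galnac2, which shares 497 exon bases with Snhg16 on the opposite strand, was listed at 0 in every library.

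The box C/D snoRNAs that lie in Snhg5 and Snhg12 are shown because the host RNA and the RNA it carries are separate rows of the deposited tables, and these snoRNAs were listed at 0 in every library. Capitals mark box C (TGATGA) and box D (CTGA), the short motifs that bind the particle's core proteins. The sequences are from GENCODE vM21 (GRCm38), given 5′ to 3′, at chr9:88521529-88521600 and chr9:88521797-88521868 on the minus strand and at chr4:132310691-132310764 on the plus strand.
Snord50a: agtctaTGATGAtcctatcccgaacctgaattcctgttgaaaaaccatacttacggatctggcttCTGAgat
Snord50b: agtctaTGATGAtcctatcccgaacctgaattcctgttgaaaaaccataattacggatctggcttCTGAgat
Snord99: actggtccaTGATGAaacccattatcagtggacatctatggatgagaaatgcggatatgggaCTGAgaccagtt
Snord50a and Snord50b differ by C50A, counted from the 5′ end with the base of Snord50a first, so 98.6% of their 72 bases are identical. Reads of such near-identical copies can be split or dropped in counting, and how the authors treated them is not given in the sources used here. All 72 bases of Snord50a and of Snord50b, and all 74 of Snord99, also lie in annotated exons of their hosts on the same strand. The part of either feature in the rows at 0 was not tested.

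Gas5 (chromosome 1: 161034422 to 161038539, plus strand), first known as a transcript that builds up in growth-arrested cells, holds 10 annotated snoRNA genes. Its scaled values were 234, 146, 163 and 155 in ex vivo CLP 1 to 4 and 177, 124, 144 and 129 in cCLP 1 to 4. Without the pair that stood apart, every ex vivo value lay above every cCLP value, with means of 184.0 ± 43.6 and 132 ± 10.4 (SD, n = 3 each). The log2 fold change of -0.45 ± 0.16 nevertheless missed the threshold in limma (adjusted p 0.0566), and leaving out single libraries moved it both ways. Without ex vivo CLP 4 it was -0.56 (limma adjusted p 0.0416), and without ex vivo CLP 1, the library with the highest value, it was -0.26 (0.0818). Over 8 libraries it was -0.27 ± 0.17.

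Snhg3 and Snhg20 were higher in cCLP. Snhg3 (chromosome 4: 132348014 to 132353686, minus strand), host of Snora73a and Snora73b, measured 17.2, 26.5, 17.3 and 18.9 in ex vivo CLP 1 to 4 and 14.3, 22.1, 25.9 and 24.6 in cCLP 1 to 4. The highest and the lowest of the 8 values belonged to ex vivo CLP 2 and cCLP 1. Over 6 libraries Snhg3 rose 1.34-fold (95% confidence interval 1.14 to 1.58), with a limma adjusted p of 0.0111 that became 0.0552 without cCLP 3. Over 8 libraries its log2 fold change was 0.11 ± 0.21.

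Snhg20 (chromosome 11: 117076008 to 117078955, plus strand) holds the small Cajal body RNA gene Gm26083. It measured 7.36, 16.6, 6.18 and 6.54 in ex vivo CLP 1 to 4 and 6.70, 12.6, 13.4 and 13.6 in cCLP 1 to 4. Ex vivo CLP 2 had the highest of the 8 values, and cCLP 1 lay among ex vivo CLP 1, 3 and 4. Over 6 libraries the mean rose from 6.69 ± 0.602 to 13.2 ± 0.513 (SD, n = 3 each), a log2 fold change of 0.89 ± 0.12 with a limma adjusted p of 0.000675. Its ex vivo values in this comparison were all below the filter of 10, so Snhg20 was tested through its cCLP values and its direction was fixed by that filter. Over 8 libraries the log2 fold change was 0.37 ± 0.34.

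The remaining tested host genes did not pass in either comparison. Snhg6, host of 1 snoRNA gene, measured 36.8, 53.1, 44.5 and 36.3 in ex vivo CLP 1 to 4 and 31.6, 35.8, 52.8 and 44.1 in cCLP 1 to 4. The groups overlapped with and without the pair. Its log2 fold change was 0.16 ± 0.15 over 6 libraries (95% confidence interval -0.19 to 0.51) and -0.06 ± 0.19 over 8. Snhg15, host of Snora9, measured 25.7, 24.3, 39.6 and 27.6 in ex vivo CLP 1 to 4 and 27.7, 27.4, 29.8 and 30.6 in cCLP 1 to 4. A single library, ex vivo CLP 3, stood above the other 7. Its log2 fold change was -0.06 ± 0.16 over 6 libraries (95% confidence interval -0.42 to 0.31) and 0.0028 ± 0.15 over 8. Epb41l4aos, which runs opposite to Epb41l4a and holds 1 snoRNA gene, measured 41.7, 36.5, 46.97 and 54.5 in ex vivo CLP 1 to 4 and 47.8, 38.96, 48.03 and 37.4 in cCLP 1 to 4. These groups overlapped too, and the log2 fold change was -0.20 ± 0.14 over 6 libraries and -0.05 ± 0.15 over 8.

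Snora73a and Snora73b, in Snhg3, were the hosted snoRNAs that could be tested. Of 33 snoRNA and small Cajal body RNA genes inside 13 of the 24 genes, 31 were listed in the tables and 24 of those were at 0 in every library. Snora78, in Snhg9, was listed at 1 to 5. Snora73a had scores of 16, 34, 24 and 32 in ex vivo CLP 1 to 4 and at 16, 23, 25 and 24 in cCLP 1 to 4. Snora73b had scores of 25, 48, 31 and 52 in the former and 26, 30, 28 and 46 in the latter. For both, ex vivo CLP 2 gave the highest scaled value. Over 6 libraries neither passed the test while the host did: the log2 fold change was -0.06 ± 0.15 for Snora73a (limma adjusted p 0.770) and -0.14 ± 0.15 for Snora73b (0.505).

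Both sequences are shown because they are so alike that their reads may not be told apart. Capitals mark the ACA box near the 3′ end, and the sequences, from GENCODE vM21 (GRCm38), lie at chr4:132352775-132352979 and chr4:132352322-132352526 on the minus strand.
Snora73a: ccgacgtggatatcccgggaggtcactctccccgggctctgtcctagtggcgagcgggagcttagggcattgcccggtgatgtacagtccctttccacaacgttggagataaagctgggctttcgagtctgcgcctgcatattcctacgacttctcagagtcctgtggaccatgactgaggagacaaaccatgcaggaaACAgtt
Snora73b: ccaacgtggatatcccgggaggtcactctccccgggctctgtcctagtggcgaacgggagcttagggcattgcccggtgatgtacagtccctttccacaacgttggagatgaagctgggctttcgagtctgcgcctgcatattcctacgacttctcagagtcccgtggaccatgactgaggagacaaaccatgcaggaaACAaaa
Over 205 bases they differ at 7 positions, G3A, G54A, A111G, T164C, G203A, T204A and T205A, with the base of Snora73a first and positions counted from the 5′ end. They are 96.6% identical, so the 2 rows are uncertain as separate values. Of Snora73a, 159 bases also lie in annotated exons of Snhg3.

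The ratio of host to snoRNA was taken within each library, as a difference of log2(scaled value + 1). The log2 ratio of Snhg3 to Snora73a was -0.18, -0.49, -0.74 and -0.29 in ex vivo CLP 1 to 4 and -0.09, -0.13, 0.11 and 0.26 in cCLP 1 to 4. That of Snhg3 to Snora73b was -0.80, -0.97, -1.10 and -0.96 and then -0.75, -0.50, -0.05 and -0.64. Neither ratio overlapped between the labelled groups, unlike the levels of Snhg3 and of both snoRNAs. The gap was narrow. For Snora73a the nearest values were -0.18 in ex vivo CLP 1 and -0.13 in cCLP 2. For Snora73b they were -0.80 in ex vivo CLP 1 and -0.75 in cCLP 1. Snhg3 had scores of 14 in ex vivo CLP 1 and 15 in cCLP 1, so the separation rests on small steps between whole numbers. The mean differences, 0.46 and 0.47, had an exact two-sided permutation p of 0.0286 each, the smallest that 4 against 4 can give, and 0.0857 after adjustment over 6 such quantities. Both ratios were added after the values had been seen. Over 6 libraries the differences were 0.49 and 0.56 with an exact permutation p of 0.1, the smallest that 3 against 3 can give.

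Snhg3 also shares 135 exon bases on the same strand with Rcc1, the exchange factor of the nuclear GTPase Ran. Rcc1 fell over 6 libraries, from 32.1 ± 2.62 to 24.96 ± 0.326 (SD, n = 3 each; limma adjusted p 0.0195), while Snhg3 rose. The lincRNA Gm17300, which overlaps 705 exon bases of Snhg3 on the opposite strand, was listed at 0 in every library.

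The microRNA host genes Mir142hg and Mir17hg were higher in cCLP over 6 libraries. Mir142hg (chromosome 11: 87755577 to 87757270, plus strand) is the precursor of miR-142, a microRNA made throughout the blood lineage. It measured 18.4, 36.5, 12.4 and 14.5 in ex vivo CLP 1 to 4 and 14.3, 37.9, 41.3 and 35.7 in cCLP 1 to 4. Ex vivo CLP 2 and cCLP 2 to 4 were high and the other 4 libraries low. Over 6 libraries the mean rose from 15.1 ± 3.05 to 38.3 ± 2.84 (SD, n = 3 each), 2.47-fold with a 95% confidence interval of 1.96 to 3.11 and a limma adjusted p of 0.000225. Over 8 libraries the log2 fold change was 0.65 ± 0.41.

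Mir17hg (chromosome 14: 115042879 to 115046727, plus strand) carries a cluster of 6 microRNA genes that is needed for normal B cell development in mice. It measured 28.2, 33.2, 14.8 and 15.3 in ex vivo CLP 1 to 4 and 17.2, 33.7, 28.8 and 33.1 in cCLP 1 to 4. Among the ex vivo libraries that stayed in the comparison, ex vivo CLP 1 stood close to the cCLP values. The rise from 19.4 ± 7.59 to 31.9 ± 2.66 (SD, n = 3 each) had a log2 fold change of 0.74 ± 0.23 and a limma adjusted p of 0.0313. That call was lost under scaling by the library sum (adjusted p 0.0565) and when ex vivo CLP 3 or 4 or cCLP 2 or 4 was left out (0.0906 to 0.0972). Over 8 libraries the log2 fold change was 0.33 ± 0.31.

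The mature microRNAs of both hosts are shown because they are what the hosts are known for, while the tables hold the host RNA. The deposited rows of the precursor genes Mir17, Mir18, Mir19a, Mir20a, Mir19b-1 and Mir92-1 were at 0 in every library, so no mature microRNA level is given. These precursor genes lie entirely in annotated exons of Mir17hg on the same strand, and the part of that overlap in the rows at 0 was not tested. The sequences are from RefSeq (GRCm38.p6), 5′ to 3′, with the seed, bases 2 to 8, in capitals.
miR-17-5p: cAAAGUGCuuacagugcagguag
miR-20a-5p: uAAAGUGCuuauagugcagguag
miR-18a-5p: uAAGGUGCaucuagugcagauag
miR-19a-3p: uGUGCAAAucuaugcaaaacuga
miR-19b-3p: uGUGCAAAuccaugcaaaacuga
miR-92a-3p: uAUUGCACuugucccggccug
miR-142a-5p: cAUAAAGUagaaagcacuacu
miR-142a-3p: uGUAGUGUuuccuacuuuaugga
By seed, miR-17-5p and miR-20a-5p form 1 group (AAAGUGC) and miR-19a-3p and miR-19b-3p another (GUGCAAA). The seeds of the other 4 sequences shown are each held by 1 of them.

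Mir155hg and Dleu2 were too low to be tested. Mir155hg, precursor of miR-155, had scores of 3, 1, 7 and 10 in ex vivo CLP 1 to 4 and of 5, 1, 2 and 1 in cCLP 1 to 4, with the higher values in the libraries that resembled ex vivo CLP. Dleu2, which holds the genes of miR-15a and miR-16, was listed at 1 to 2 in every library.

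Of the RNAs of nuclease particles, Rpph1 rose over 6 libraries and Rmrp did not pass. Rpph1 is the RNA of RNase P, the nuclease that trims the 5′ end of transfer RNA precursors, and lies at chromosome 14: 50807449 to 50807767 on the minus strand. It measured 90.7, 317, 209 and 218 in ex vivo CLP 1 to 4 and 163, 325, 363 and 362 in cCLP 1 to 4. Ex vivo CLP 2 and cCLP 2 to 4 lay above the other 4 libraries, and ex vivo CLP 1 was the lowest. Over 6 libraries it rose from 172.5 ± 71.0 to 350.0 ± 21.4 (SD, n = 3 each), 2.17-fold with a 95% confidence interval of 1.32 to 3.58 and a limma adjusted p of 0.0218. Leaving out cCLP 2, 3 or 4 put the adjusted p at 0.0529 to 0.0644, and without ex vivo CLP 1 the log2 fold change was 0.71 in place of 1.12. Over 8 libraries it was 0.60 ± 0.41.

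Rmrp, the RNA of RNase MRP, which cuts ribosomal RNA precursors (chromosome 4: 43492788 to 43493058, minus strand), measured 56.4, 139, 151 and 150 in ex vivo CLP 1 to 4 and 93.7, 135, 140 and 129 in cCLP 1 to 4. A single library, ex vivo CLP 1, was far below the others of its group. Its log2 fold change was 0.31 ± 0.35 over 6 libraries, -0.16 without ex vivo CLP 1, and 0.09 ± 0.32 over 8. The log2 ratio of Rpph1 to Rmrp was 0.68, 1.18, 0.47 and 0.54 in ex vivo CLP 1 to 4 and 0.79, 1.27, 1.37 and 1.48 in cCLP 1 to 4. Over 6 libraries the ratio did not overlap between groups (difference 0.81, exact permutation p 0.1, the smallest possible), and over 8 libraries the difference was 0.51 with an exact permutation p of 0.0571. After adjustment over 6 such quantities these permutation p-values were 0.12 and 0.114. The ratio was not among the planned tests.

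Neighbours of these short genes were examined because reads could be shared, and the strand setting of the counting is not given in the sources used here. Parp2, a DNA damage polymerase whose start lies 74 bases from that of Rpph1 on the opposite strand, fell over 6 libraries from 54.3 ± 2.996 to 40.9 ± 2.44 (SD, n = 3 each; limma adjusted p 0.0104), against the direction of Rpph1. The log2 ratio of Rpph1 to Parp2, also not planned, differed by 1.52 over 6 libraries (exact permutation p 0.1). Over 8 libraries it differed by 0.84 (exact permutation p 0.257). Ccnb1ip1, which shares 233 exon bases with Rpph1 on the same strand, was listed at 0 in every library. Zbtb37, which starts 427 bases from Gas5 on the opposite strand, was listed at 1 to 3 and was not tested. Ccdc107, which starts 158 bases from Rmrp on the opposite strand and shares 124 exon bases with it, had a log2 fold change of 0.38 and did not pass (adjusted p 0.0868). Rn7sk, another short RNA made by RNA polymerase III, rose over 6 libraries from 368.7 ± 37.2 to 527.7 ± 87.7 (SD, n = 3 each; limma adjusted p 0.0277) and had a log2 fold change of 0.09 ± 0.28 over 8. The summed scaled value of all snoRNA, small Cajal body RNA and small nuclear RNA genes moved differently between libraries, at 992, 2061, 1921 and 1239 in ex vivo CLP 1 to 4 and 823, 1346, 1399 and 1220 in cCLP 1 to 4. Its part in the results for Rpph1 and Snora73 was not tested.

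**Figure D3:**
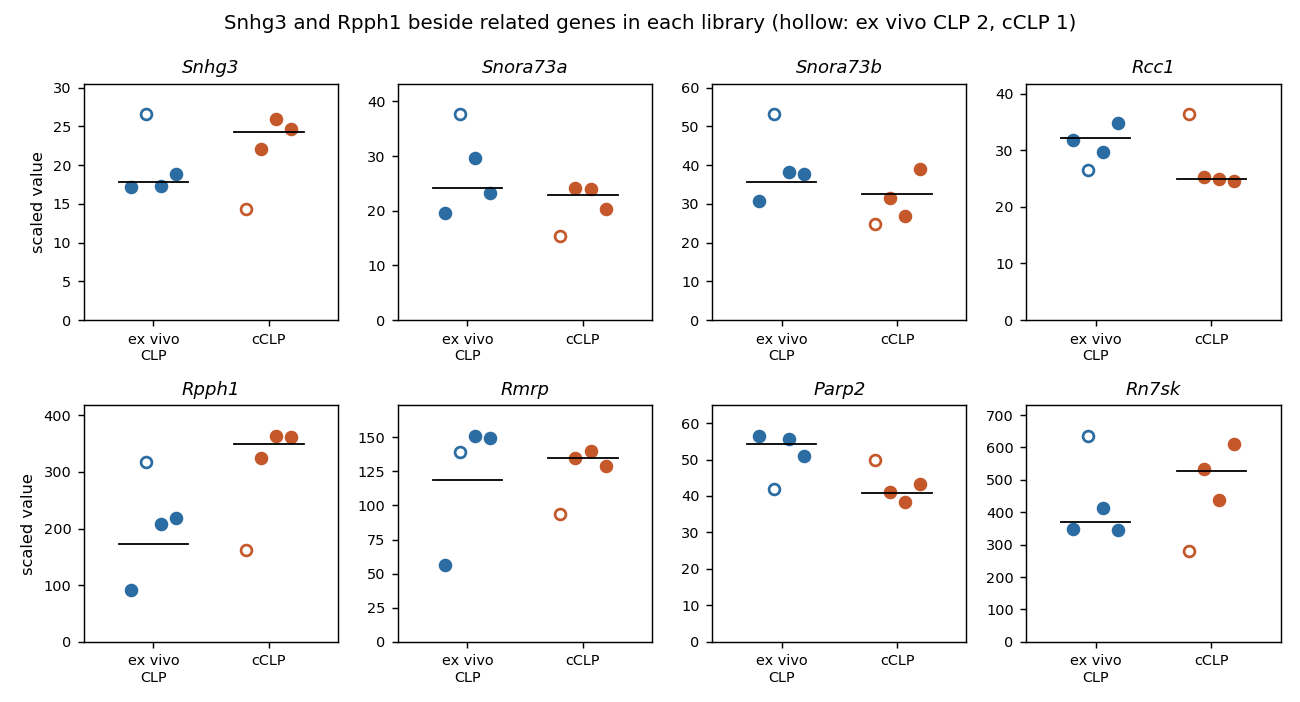
Scaled value (vertical axis, from 0, no unit) of Snhg3 with its snoRNAs and its overlapping gene Rcc1, and of Rpph1 with Rmrp, Parp2 and Rn7sk, in each library; hollow points are ex vivo CLP 2 and cCLP 1, and lines are means of the filled points. The filled points of Snhg3 rise from 17.8 to 24.2 while those of Rcc1 fall, and those of Rpph1 rise from 172.5 to 350.0 while those of Parp2 fall.

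Malat1, the abundant RNA of nuclear speckles (chromosome 19: 5795690 to 5802672, minus strand), did not pass the test in either comparison. It measured 89.5, 38.7, 80.4 and 100.3 in ex vivo CLP 1 to 4 and 70.8, 89.5, 50.9 and 57.7 in cCLP 1 to 4. The value of cCLP 2 lay at the ex vivo level. The log2 fold change over 6 libraries was -0.48 ± 0.20 (limma adjusted p 0.0899), without cCLP 2 it was -0.72 (0.00734), without cCLP 3 it was -0.31 (0.268), and over 8 libraries it was -0.14 ± 0.31. Neat1, the scaffold RNA of paraspeckles, was listed at 1 to 4 in every library and was not tested.

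Terc had a score of 0 in cCLP 1 and ex vivo CLP 1, 3 and 4 and of 1 or 2 in the other libraries. Snhg17 was listed at 8 to 13 and had scaled values from 8.61 to 10.5, at the edge of the filter. Snhg9 was listed at 2 to 6. Meg3, the maternally expressed RNA of the imprinted Dlk1-Dio3 domain, and Snhg11, Snhg18 and Snhg7os were listed at 0 in every library. Of 5 other genes of that domain 4 were also at 0 throughout, and Dlk1 had a score of 4 in ex vivo CLP 2, of 2, 5 and 3 in cCLP 2 to 4 and of 0 in the rest.

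As a share of the summed scores, the 24 genes together took 0.168%, 0.193%, 0.172% and 0.183% in ex vivo CLP 1 to 4 and 0.163%, 0.215%, 0.204% and 0.194% in cCLP 1 to 4. The labelled groups overlapped, and the difference of 0.0152 percentage points had an exact two-sided permutation p of 0.257. Over 6 libraries the cCLP shares were all higher, by 0.0302 percentage points on average, with an exact permutation p of 0.1, the smallest that 3 against 3 can give. Rpph1 alone accounted for more than this difference: its share over these 6 libraries was 0.0335% ± 0.0123 for ex vivo CLP and 0.0711% ± 0.000639 for cCLP (SD, n = 3 each). The other 23 genes took 0.141% ± 0.00765 and 0.133% ± 0.00994, which overlapped between the groups. This split was made after the values had been seen and was not tested.

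Between 0 and 5 genes were called over 6 libraries in each list of proteins that work with these RNAs. Of the 4 core proteins of box C/D particles, Nop58 fell from 197.9 ± 8.02 to 163 ± 5.19 (SD, n = 3 each; limma adjusted p 0.0438), and the methyltransferase Fbl (log2 fold change -0.02), Nop56 (0.15) and Snu13 (0.06) did not pass. Of the box H/ACA core, 3 of 4 genes were tested and 0 were called, at log2 fold changes of -0.08 for the pseudouridine synthase Dkc1, -0.37 for Nhp2 and 0.14 for Nop10. That list had 1 gene at an unadjusted p below 0.05, and the smallest adjusted p of limma was 0.0785. Of the factors that assemble both kinds of particle, 2 of 7 tested fell and 0 rose, led by Nufip1 with a log2 fold change of -1.05 ± 0.15 (adjusted p 0.0009 in limma). Among cCLP 2 to 4 only cCLP 4, at 11.9, reached the filter of 10 for Nufip1. It was thus tested through its ex vivo values, a filter that favours a fall.

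Of the nonsense-mediated decay genes, 2 of 9 tested fell and 0 rose, led by Smg9 at -0.67 (limma adjusted p 0.0110), whose cCLP values all lay below the filter. Of 18 translation genes known to start with an oligopyrimidine tract, as several host genes do, 1 rose, Eif4b at 0.33 (0.0352), and 0 fell. Of 6 tested microRNA biogenesis genes, 1 rose, the Argonaute gene Ago1 at 0.62 (0.0105), and 0 fell. Of 12 tested paraspeckle and speckle genes 1 rose and 2 fell, led by Cpsf6 at 0.47 and by Sfpq at -0.56. These shares stand beside 20.9% higher and 22.2% lower among all genes.

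Of 8 tested protein subunits of RNase P and RNase MRP, 3 rose and 2 fell over 6 libraries, 62.5% called against 43.1% of all genes. Rpp38 rose by a log2 fold change of 1.09 (limma adjusted p 0.0227), with ex vivo values below the filter, and Pop4 fell by 0.64 (0.00238). Pop4 also separated the labelled groups, as 3.48% of all tested genes did. Its means were 63.4 ± 9.23 in ex vivo CLP and 44.9 ± 5.69 in cCLP (SD, n = 4 each), with a limma adjusted p of 0.484. The telomerase proteins had 1 of 3 tested and the Pumilio proteins, which Norad binds, 2 of 2, with 0 called in both lists by limma and 0 and 1 genes at an unadjusted p below 0.05. Of 2 tested genes near Kcnq1ot1, Cd81 rose by 1.55 (1.94e-05) and Tssc4 fell by 0.41 (0.0116). Over the 8 libraries as labelled, limma called 0 genes of any of these lists.

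Protein-coding hosts of snoRNAs were the closest comparison class. Of 265 such genes 158 were tested over 6 libraries, and 25 rose and 20 fell, with a median log2 fold change of 0.05. That is 28.5% called, against 43.1% of all genes. The largest changes were in Col19a1, a collagen gene, at 2.95 (limma adjusted p 9.8e-06) with its ex vivo values below the filter, and in Csgalnact2, an enzyme of chondroitin sulfate synthesis, at -3.13 (5.32e-06) with its cCLP values below it. Of the 8 tested genes named Snhg or Gas5, 2 rose and 3 fell (62.5% called), with a median of -0.25. Other noncoding RNA genes, 65 of them tested, had 21 that rose and 8 that fell (44.6% called), with a median of 0.17. No test of a difference between these classes was made.

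**Figure D4:**
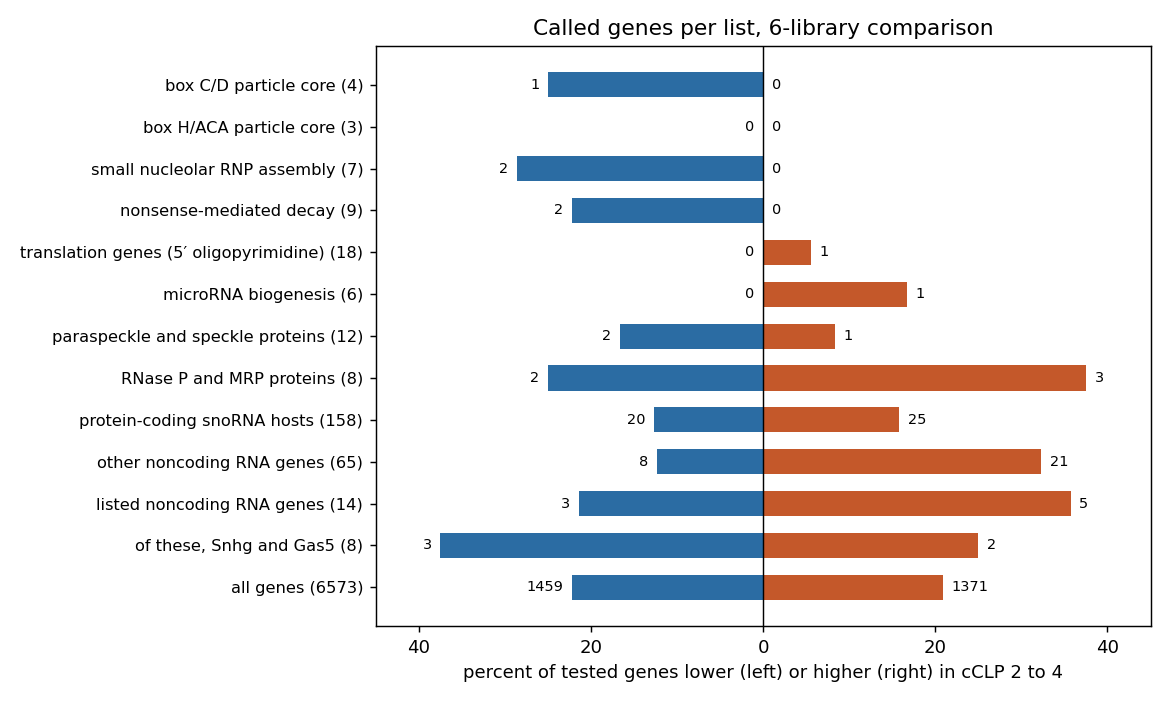
Percent of tested genes (horizontal axis) called lower, to the left, or higher, to the right, in cCLP 2 to 4 than in ex vivo CLP 1, 3 and 4, for each list, with the number tested in brackets and the number called beside each bar. The bottom bar gives all 6573 genes, with 1459 lower and 1371 higher, and many lists hold fewer than 10 tested genes.

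Transcription starts were examined because host genes of this kind are known to begin with a pyrimidine run. A run was a C followed by at least 4 pyrimidines, read on the gene's strand. In the RefSeq table (GRCm38.p6), 22 starts matched 17 of the 24 genes. A run began exactly at 1 of these 22 starts (4.55%), against 2.51% of 32851 starts in the table, and lay within the window from 10 bases before to 20 after the start at 10 of 22 (45.5%), against 35.8%. The windows of host genes that were lower in cCLP, of Gas5 and of those that were higher are shown with the run in capitals.
Gas5: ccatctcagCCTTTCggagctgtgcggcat
Snhg12: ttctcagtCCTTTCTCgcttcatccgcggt
Snhg16: gcgcaagcgcgatctcgtCCTTTCCgaggt
Snhg5: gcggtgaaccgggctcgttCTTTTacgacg
Snhg3: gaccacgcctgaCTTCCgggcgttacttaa
Snhg20: gttccggccggaagtgcatttgcagagctg
They lie at chr1:161035156-161035185 (plus), chr4:132308668-132308697 (plus), chr11:116671650-116671679 (plus), chr9:88522878-88522907 (minus), chr4:132353667-132353696 (minus) and chr11:117076773-117076802 (plus). Gas5 has another RefSeq start without a run, and the window of Snhg20 holds none. Both directions of change occur among genes with a run near the start.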

How the data were processed

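RNA was measured by sequencing of ribosomal-RNA-depleted total RNA from 8 libraries of sorted mouse bone marrow progenitors, 4 labelled ex vivo CLP and 4 labelled cCLP. The deposited tables pair Ensembl gene IDs with whole numbers, which are treated here as a score. Per the submitters' processing notes, TopHat2, Bowtie2 and HTSeq 1.0.6 were used by the authors with the GRCm38 (mm10) genome. The strand setting, the annotation and any scaling of the scores are not given in the sources used here. Scores were not treated as counts: for genes with mean values of 5 to 50, the dispersion index was 0.540 between ex vivo CLP 3 and 4 and 0.260 between cCLP 3 and 4, where simulated Poisson counts gave 1.01. A test for counts, as first planned for that case, was therefore not used, and depth is unknown.

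Of 39179 IDs, 37693 matched GENCODE vM21, which gave symbols and positions, and 1 gene of the set was matched by its RefSeq symbol. Scores were divided by trimmed-mean library factors (30% of ratios and 5% of levels trimmed at each end). Genes with a scaled value of at least 10 in at least 4 of 8 or 3 of 6 libraries were tested on log2(scaled value + 1) with limma 3.58.1 (trend, robust) in R 4.3.3, two-sided, with Benjamini-Hochberg adjustment over all tested genes and a threshold of 0.05. Fold changes are cCLP over ex vivo CLP on that scale and understate changes of low genes. Single values per library were compared with exact permutation tests in SciPy 1.17.1. On simulated data with 200 genes shifted by 0.5 log2 units, near the size of several changes reported here, 63% were recovered over 8 libraries and 31.5% over 6. With a shift of 1 unit, 96% and 87.5% were recovered. Both simulations used the spread within the groups of the 6 libraries and held no library placed with the other group. The recovery over 8 simulated libraries therefore does not apply to the 8 libraries as labelled, whose spread includes ex vivo CLP 2 and cCLP 1. The 200 shifted genes were drawn from 4927, whereas 43.1% of all tested genes were called over the 6 libraries. Benjamini-Hochberg adjustment depends on that share, so the recovery over 6 simulated libraries does not describe these data either.

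The genes of the set, the lists and the 6-library comparison were chosen with earlier results of these data known. Named from the lists are the core particle proteins and the called gene with the largest change in each direction over 6 libraries. Rcc1 and Rn7sk were added for their overlap or kind. Alternatives were other scalings, filters and pseudocounts, protein-coding genes alone with the set, plain moderation, a replicate block, and leaving out libraries.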

Additional observations from a re-analysis of the deposited data

Results flagged for a closer look

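A library far from the others of its labelled group was found in 4 of 30 groups of 4 values, judged by the gap to the nearest value over the group's range. Chance gives about 1 in 20 independent groups, but these groups share the same 8 libraries, so the count does not measure an excess over chance. Rmrp was 56.4 in ex vivo CLP 1, against 139 to 150.8 in the other ex vivo libraries. Snhg16 was 8.85 in ex vivo CLP 2, against 14.7 to 15.3. Snhg20 was 16.6 in ex vivo CLP 2, against 6.18 to 7.36. In cCLP 1 Snhg20 was 6.70, against 12.6 to 13.6 in the other cCLP libraries. The last 3 values belong to the pair of libraries whose values over all genes resembled the other group.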

How the results depend on the processing

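Leaving out ex vivo CLP 2 and cCLP 1 changed the calls most: 0 genes over 8 libraries became 2830 (1371 higher, 1459 lower) over 6, and the calls in the set went from 0 to 8. The other alternatives over 8 libraries, leaving out single libraries included, gave 0 calls among all genes and 0 in the set. Over 6 libraries, testing without a filter gave 5002 calls (2236 higher, 2766 lower), leaving out 1 library gave 2173 to 3303, and the set had 6 to 10 calls under every alternative and 6 to 8 with 1 library left out. The sign changed for uncalled genes. Over 8 libraries, leaving out 1 library gave -0.15 to 0.042 for Epb41l4aos, -0.44 to 0.0075 for Malat1, -0.25 to 0.22 for Rmrp, -0.075 to 0.15 for Snhg15 and -0.19 to 0.051 for Snhg6. Without the pair, Snhg15 was -0.057 and Snhg6 0.16, and with relative log expression scaling Snhg15 was -0.0075. Over 6 libraries, leaving out 1 library gave -0.16 to 0.54 for Rmrp and -0.17 to 0.13 for Snhg15. The cause was not tested. The difference in the set's share of the scores was 0.00836 to 0.0255 percentage points with 1 library left out. Mir142hg, Snhg5, Snhg12, Snhg16 and Snhg20 stayed called under each of 15 alternatives over 6 libraries. All of these alternatives used the 6 libraries chosen by their values, or a part of them, so they are no independent support. Snhg16 and Snhg20 had also passed the main filter through the group where they were higher.

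With the replicate number as a block over 8 libraries, limma called 0 genes. Deviations from the labelled group means were compared between libraries. Same-numbered libraries deviated together for numbers 1 and 2 (correlation 0.595 and 0.843). For 3 and 4 they deviated oppositely (-0.575 and -0.860), and 2 of 8 libraries were most like their own number. The labelled means hold ex vivo CLP 2 and cCLP 1, whose placement alone would give such signs, so these correlations cannot decide on pairing. The numbers were not taken as pairs. Depth is unknown, so no counting error can be given for the low genes.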
